A study of Mus musculus with 6 samples.

Results

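A set of 40 genes that encode chromatin remodellers and histone acetylation enzymes were followed in the nascent RNA of mouse embryonic stem cells: subunits of the BAF and PBAF remodelling complexes, CHD remodellers, subunits of the NuRD complex with histone deacetylases, the ISWI, INO80 and EP400 ATPases, and the acetyltransferases Ep300 and Crebbp. They were chosen by symbol as 40 of the 25899 gene symbols in the count table, and all 40 were among the 13869 genes with enough reads to be tested. The tested libraries came from cells given 250 nM 4-hydroxytamoxifen (4OHT) for 2 h, and the libraries they were set against came from untreated cells of the same clones. Each group had 3 libraries, one from each of clones a, b and c. All cells were E14tg2a, a line from 129SV mice, and stably carried a cRAF-ErT2 cassette, a RAF kinase fused to a hormone-binding domain that 4OHT switches on, so that ERK signalling can be started at will. Both groups had grown in serum with LIF and 2 µM CHIR99021 and then for 24 h in serum with LIF and 250 nM PD173074, an inhibitor of the FGF receptor, so the untreated cells carried the cassette and the inhibitor too. New transcripts were labelled with 5 mM 5-ethynyl uridine for 15 min and captured, so that the reads report RNA made in that window. None of the libraries used here came from 4OHT-treated cells without the cassette, so 4OHT itself and the kinase cannot be told apart.

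Remodellers use ATP to slide, eject or exchange nucleosomes, and each family comes in assemblies built from alternative subunits. BAF and PBAF open chromatin at enhancers and promoters, whereas NuRD joins a CHD-family ATPase to histone deacetylases and in embryonic stem cells restrains genes while lineages are chosen. EP300 and CREBBP acetylate histones at active enhancers, and HDAC1, HDAC2 and HDAC3 remove such marks within corepressor complexes.

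Total counts were 7295334 to 9431819 in the 4OHT libraries and 9745747 to 12168380 in the untreated libraries, and at these depths 3 counts correspond to 0.247 to 0.411 CPM, the count scaled to a fixed library size. The 40 genes took 0.707 to 0.736% of the counts in the 4OHT libraries and 0.664 to 0.714% in the untreated libraries. The immediate ERK target Fos averaged 132 ± 8.65 CPM after 4OHT and 4.20 ± 0.632 CPM in untreated cells (SD, n = 3 each), and Spry4, Dusp6, Etv4 and Egr3 were called higher as well. All 10 embryonic stem cell markers on a list were tested, and their summed level was 2034 to 2385 CPM after 4OHT and 3175 to 3293 CPM in untreated cells, with 2 of them called higher and 5 lower. These and the following marker sums are CPM by library size alone, over all genes of each list, tested or not. The Fos values and the calls use TMM scaling of the library sizes. Library size alone places log2 changes about 0.20 lower than TMM, so the sums after 4OHT read lower than TMM values would. Of 8 fibroblast and feeder markers 3 passed the filter on low counts, with sums of 5.30 to 8.64 CPM after 4OHT and 4.19 to 6.05 CPM in untreated cells, and Postn had no counts. Of these 3, Col1a1 was called higher (TMM means 2.91 CPM after 4OHT and 0.259 CPM in untreated cells). Pdgfrb was called lower and Pdgfra was not called. Endoderm markers (2 of 5 tested) summed to 6.56 to 8.64 CPM after 4OHT and 6.58 to 8.63 CPM in untreated cells. Trophoblast markers (3 of 5 tested) summed to 66.1 to 77.9 CPM after 4OHT and 109 to 118 CPM in untreated cells. Neural markers (3 of 5 tested, Tubb3 without counts) summed to 17.9 to 19.3 CPM after 4OHT and 31.8 to 34.1 CPM in untreated cells. Tubb3 is overlapped over its whole span by Gm20388, a gene on the same strand that has counts. How reads there were assigned was not tested, so the missing Tubb3 counts do not show that the gene was silent. The part of these marker shifts in the results was not tested, and in bulk RNA a change in the RNA made per cell cannot be told apart from a change in the share of cells that make it.

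Levels in the following are CPM with TMM scaling of the library sizes, given per library in the order clone a, b, c or as mean ± SD over the 3 libraries of a group. A gene was called higher or lower when the adjusted p of edgeR's quasi-likelihood test (Benjamini-Hochberg over the 13869 genes) was below 0.05. This fit left out the pairing of the libraries by clone. Calls that change when clone enters the fit as a block are given with the genes. Fold changes are fitted log2 values of 4OHT over untreated with their standard error (SE).

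Of the 40 genes, 17 rose (42.5%), 7 fell (17.5%) and 16 were not called after 2 h of 4OHT. Over all genes tested 57.1% were called, 28.5% higher and 28.6% lower, and among the 40 genes 60% were called. The 24 called genes moved in the called direction in all 3 clones, and 33 of the 40 genes, called or not, had the same sign in all 3. The calls rest on the same libraries, so these signs are no separate support for them. The share over all genes was not counted. The groups did not overlap for 27 of the 40 genes (67.5%), 18 with all 4OHT libraries above and 9 with all below the untreated ones, and the same was true of 63.3% of all genes tested. Their median log2 change was 0.09, against -0.00 over all genes. The split depended on the scaling: with library size alone, the median of all genes lay at -0.20 and that of the 40 genes at -0.11, and 10 of them were called higher and 16 lower, against 17.4% higher and 41% lower of all genes. With clone as a block in the fit, 19 were called higher and 10 lower, against 34.1% and 33.3% of all genes. Called in the same direction in every one of 16 alternative fits were 10 of the 17 rises (Chd1, Chd3, Chd4, Chd7, Gatad2b, Smarca5, Arid2, Smarcd1, Ep400 and Ep300) and 4 of the 7 falls (Smarcd3, Bcl7a, Mta3 and Smarcb1). How many calls over all genes were kept in this way was not counted, so these counts do not set the 40 genes apart.

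**Figure D1:**
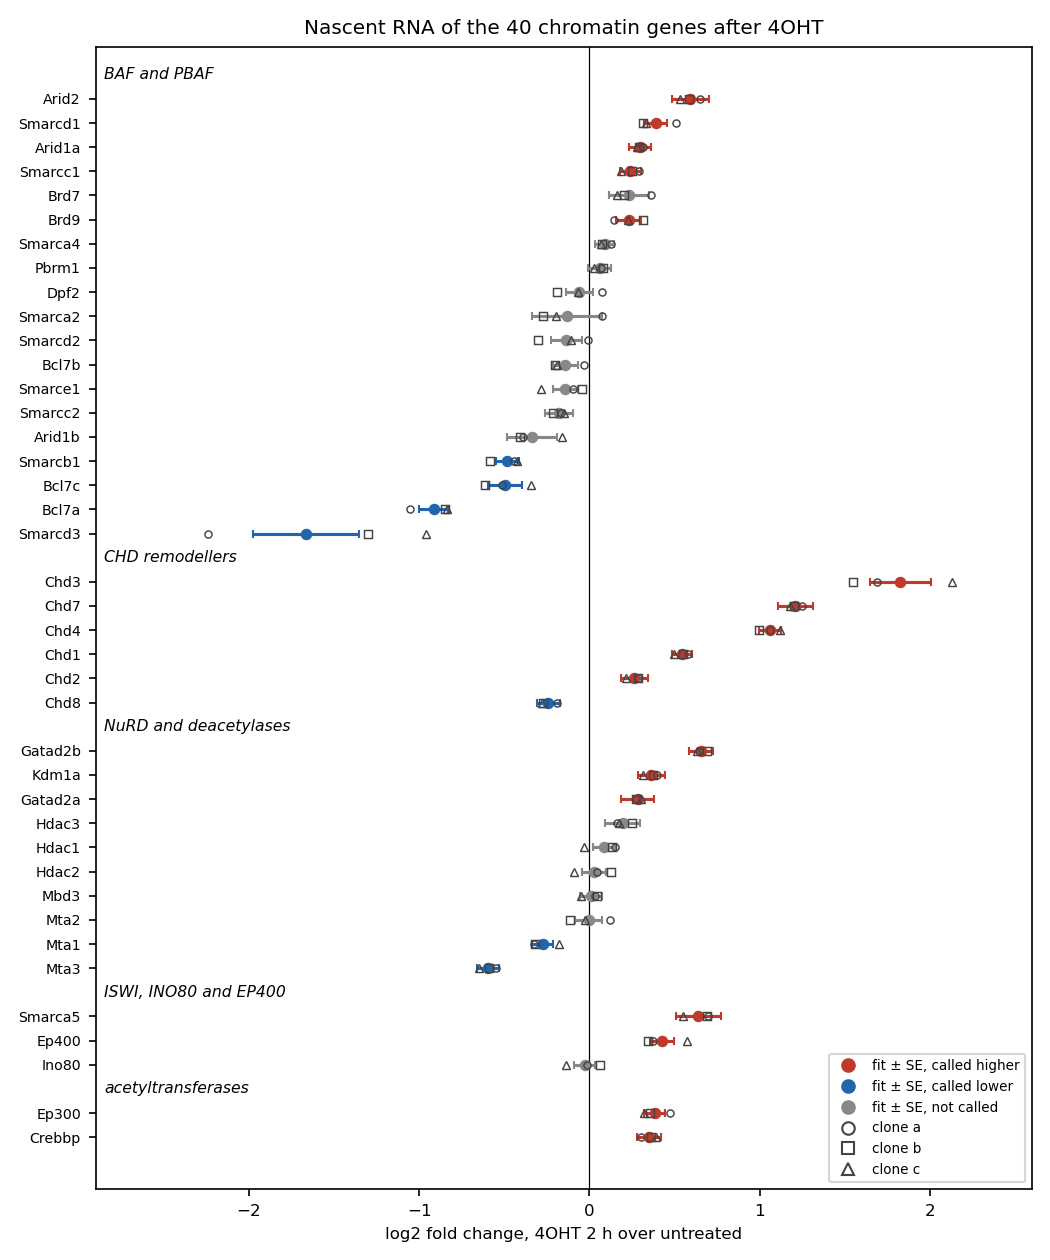
Log2 fold change of each of the 40 genes, 4OHT 2 h over untreated, grouped by complex; filled points are the edgeR fit with its SE, coloured by call, and open symbols are the log2 ratio within each clone. Chd3, Chd7 and Chd4 lie farthest to the right at 1.83, 1.21 and 1.06, and Smarcd3 and Bcl7a farthest to the left at -1.66 and -0.92.

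The promoters of 3 called genes that rose and 3 that fell are shown here so that their sequence can be read beside the changes; they are the called genes with the largest rise or fall among those with a RefSeq promoter window. Each line gives the bases before the RefSeq start site (GRCm38.p6, of up to 250 bases, less any base that GENCODE M21 places in an exon of the gene), 5′ to 3′ on the strand of the gene. Capitals mark matches to the motifs searched, which are named after the sequences.
Chd4, chr6:125095731-125095980, plus strand: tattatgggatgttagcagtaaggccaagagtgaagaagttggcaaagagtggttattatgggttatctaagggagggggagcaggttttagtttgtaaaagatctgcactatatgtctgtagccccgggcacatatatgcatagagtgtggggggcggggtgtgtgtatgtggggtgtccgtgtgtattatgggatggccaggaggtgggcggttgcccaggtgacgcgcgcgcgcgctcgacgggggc
Gatad2b, chr3:90292931-90293177, plus strand: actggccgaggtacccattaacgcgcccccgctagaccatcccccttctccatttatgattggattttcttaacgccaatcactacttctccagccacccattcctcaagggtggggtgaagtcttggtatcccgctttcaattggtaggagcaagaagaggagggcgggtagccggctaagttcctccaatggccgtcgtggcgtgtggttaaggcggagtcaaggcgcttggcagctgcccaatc
Smarca5, chr8:80739498-80739709, minus strand: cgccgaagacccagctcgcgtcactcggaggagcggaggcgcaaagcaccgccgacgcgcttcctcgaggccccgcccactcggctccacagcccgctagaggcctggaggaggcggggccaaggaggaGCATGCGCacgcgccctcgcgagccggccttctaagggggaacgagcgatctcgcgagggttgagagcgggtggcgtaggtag
Smarcd3, chr5:24602013-24602252, minus strand: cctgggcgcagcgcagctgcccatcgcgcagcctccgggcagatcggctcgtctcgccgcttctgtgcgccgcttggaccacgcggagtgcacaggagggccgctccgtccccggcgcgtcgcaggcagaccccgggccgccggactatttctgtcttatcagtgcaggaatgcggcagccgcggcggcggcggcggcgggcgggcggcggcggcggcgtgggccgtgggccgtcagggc
Bcl7c, chr7:127708934-127709016, minus strand: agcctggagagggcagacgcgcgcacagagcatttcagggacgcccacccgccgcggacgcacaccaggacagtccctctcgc
Smarcb1, chr10:75921618-75921864, minus strand: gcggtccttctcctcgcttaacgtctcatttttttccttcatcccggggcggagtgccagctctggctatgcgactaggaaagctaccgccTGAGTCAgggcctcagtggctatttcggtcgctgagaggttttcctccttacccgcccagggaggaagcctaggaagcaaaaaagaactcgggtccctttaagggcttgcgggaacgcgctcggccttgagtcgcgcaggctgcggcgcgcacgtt
The capitals are an NRF1 motif (GCGCATGC, read on the opposite strand) in the Smarca5 promoter and an AP-1 motif (TGANTCA) in the Smarcb1 promoter. The Smarcd3 window belongs to a transcript that starts 22409 bases inside the longest GENCODE gene model. RefSeq windows were found for 30 of the 40 genes, 35 windows of 300 bases in all (250 before to 50 after the start site). Searched on both strands, the NRF1 motif was in 11.43% of these 35 windows and in 2.71% of all 32851 windows, in Smarca4, Smarca5, Smarcb1 and Smarcc1. The ETS motif CCGGAAG was in 20% of the windows and in 8.86% of all windows, in Brd9, Chd8, Gatad2a, Mta2, Smarca2 and Smarcc1, and its longer form ACCGGAAGT, which contains it, was in none and in 1.1%. AP-1 was in 8.57% and 7.81%, the CRE motif TGACGTCA in none and 1.79%, the CArG box in none and 1.63%, and the E-box CACGTG in 8.57% and 7.15%. The YY1 motif AAGATGGCG was in 2.86% and 1.4%, and TATAAA in 5.71% and 13.62%. The windows of the 40 genes held a median of 31 CpG dinucleotides, against 7 over all windows, and a median GC content of 69.3%, against 52.7%. The full set of windows stands for 27025 genes, tested or not, and windows of like CpG content were not compared. These matches describe the letters of the windows and were not set against the calls by a test.

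Among the 6 CHD remodellers of the set, ATPases with paired chromodomains, 5 rose, 1 fell and none was left uncalled, with a median log2 change of 0.80. With library size alone 4 were called higher and 1 lower. Over all genes tested 28.5% were called higher and 28.6% lower, and with library size alone 17.4% and 41%. Of 4 CHD genes outside the set 1 rose and 1 fell, with a median log2 change of 0.13. Chd3, one of the alternative ATPases of NuRD, had the largest change of the 40 genes. Its levels were 33.2, 35.6 and 53.5 CPM in the 4OHT libraries and 10.2, 12.1 and 12.1 CPM in the untreated libraries. The 4OHT library of clone c was above the other two, and the groups lay far apart. Chd3 rose by 1.83 ± 0.18 on the log2 scale (adjusted p = 1.5e-05, edgeR), a 3.55-fold difference, with log2 ratios of 1.69, 1.55 and 2.13 within clones a, b and c.

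Chd4, the other NuRD ATPase, had 464, 469 and 510.2 CPM after 4OHT and 222, 235 and 235 CPM in untreated cells. It rose by 1.06 ± 0.07 (adjusted p = 6.9e-07, edgeR), 2.09-fold, with ratios between 1.00 and 1.12 in the 3 clones. The gene spans 34.6 kb of the plus strand of chromosome 6 (mm10, 125095981 to 125130591), and Chd3 26.1 kb of the minus strand of chromosome 11 (69343273 to 69369406). Both paralogs moved in the same direction, and per kilobase of annotated exon Chd4 stood 12.4 times above Chd3 after 4OHT and 21.2 times above it in untreated cells (8.90 and 15.2 times per kilobase of gene span).

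Chd7, which acts at enhancers and is mutated in human CHARGE syndrome, had 293, 325 and 257 CPM after 4OHT and 123, 141 and 114 CPM in untreated cells. It rose by 1.21 ± 0.10 (adjusted p = 5.7e-06, edgeR), 2.31-fold. Clone b was highest and clone c lowest in both groups. Chd1, which keeps the chromatin of mouse embryonic stem cells open, had 264, 274 and 255 CPM after 4OHT and 177, 187 and 180.3 CPM in untreated cells, a rise of 0.54 ± 0.06 (adjusted p = 3.5e-05, edgeR). Its relative Chd2 had 713, 711 and 619 CPM after 4OHT and 585, 584 and 533 CPM in untreated cells. These groups did not overlap, and Chd2 rose by 0.26 ± 0.08 (adjusted p = 0.014, edgeR). The call was lost with library size alone (log2 change 0.06) and without the 4OHT library of clone a (adjusted p = 0.058) or of clone b (adjusted p = 0.064). It was also lost when both libraries of clone a (adjusted p = 0.11) or of clone b (0.13, edgeR) were left out. Chd8, a remodeller that binds β-catenin, was the only member of the group to fall, with 133 ± 8.71 CPM after 4OHT and 157 ± 5.01 CPM in untreated cells (SD, n = 3 each, log2 change -0.24 ± 0.07, edgeR adjusted p = 0.011).

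**Figure D2:**
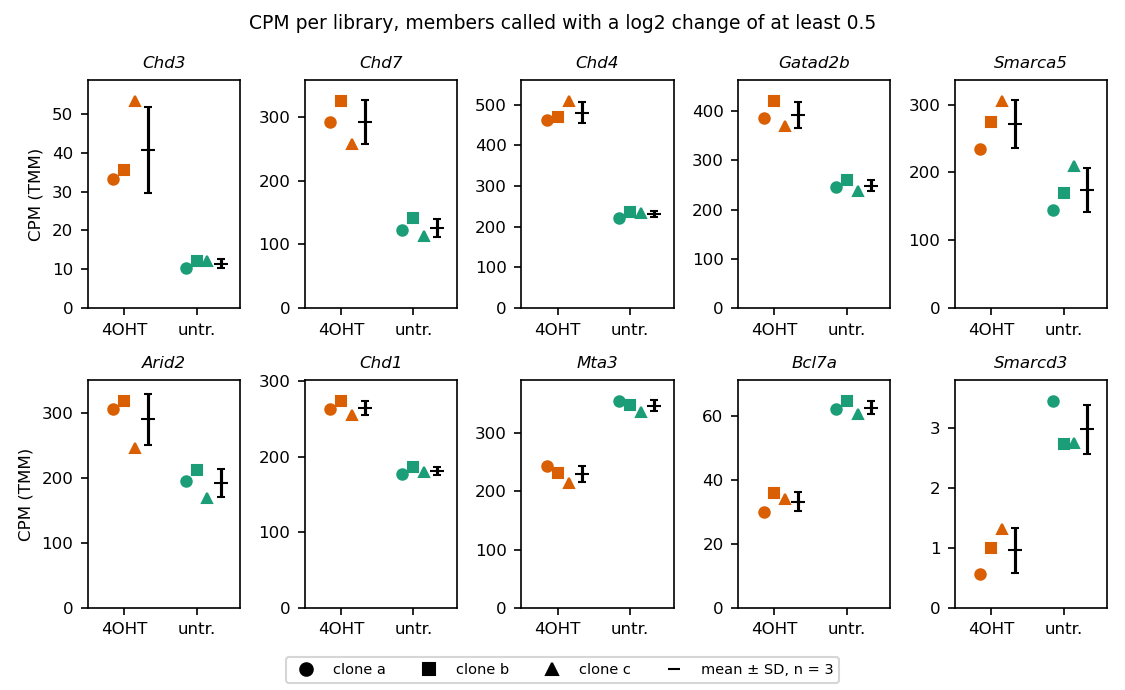
CPM (TMM) in each library of the 10 called genes whose log2 change was at least 0.5 in size, 4OHT to the left of untreated; symbols stand for clones and bars for mean ± SD (n = 3). In all 10 panels the 4OHT and untreated libraries do not overlap; Chd3 averages 40.8 CPM after 4OHT and 11.4 CPM in untreated cells, and Smarcd3 0.959 CPM after 4OHT and 2.97 CPM in untreated cells.

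Of the 19 BAF and PBAF subunits, 5 rose and 4 fell, with a median log2 change of -0.13. With library size alone 2 were called higher and 10 lower (median -0.33), and with clone as a block 6 were called higher and 7 lower. Over all genes tested the shares were 28.5% higher and 28.6% lower. They were 17.4% and 41% with library size alone, and 34.1% and 33.3% with the block. Neither of the alternative ATPases was called. Smarca4 averaged 194 ± 3.54 CPM after 4OHT and 182 ± 3.52 CPM in untreated cells (SD, n = 3 each). Its log2 change was 0.09 ± 0.06 (adjusted p = 0.20, edgeR), and -0.11 with library size alone. Smarca2 was near the bottom of the range, with 2.69 ± 0.253 CPM after 4OHT and 2.96 ± 0.134 CPM in untreated cells (log2 change -0.13 ± 0.21). Per kilobase of exon Smarca4 stood 159 times above Smarca2 after 4OHT and 136 times above it in untreated cells (142 and 121 times per kilobase of gene span).

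Among the core subunits Smarcd1 and Smarcc1 rose, and Smarcd3 and Smarcb1 fell. Smarcd3, an alternative to Smarcd1 and Smarcd2 that is best known from heart and muscle, had 0.571, 0.990 and 1.32 CPM after 4OHT and 3.45, 2.73 and 2.74 CPM in untreated cells. These values rest on few reads: 5, 8 and 9 counts in the 4OHT libraries and 43, 36 and 28 counts in the untreated libraries. Smarcd3 fell by 1.66 on the log2 scale (SE 0.31, edgeR adjusted p = 0.0012), to 0.316 of the untreated level, with ratios of -2.24, -1.30 and -0.96 in clones a, b and c. Smarcd3 overlaps Chpf2 on the opposite strand over 3739 bp; Chpf2 had a log2 change of 0.00 (adjusted p = 0.99, edgeR), and whether the counting used strand is not given in the sources used here. Smarcd1 rose, with 81.6 ± 4.00 CPM after 4OHT and 62.4 ± 1.65 CPM in untreated cells (log2 change 0.39 ± 0.07, edgeR adjusted p = 0.00067), while Smarcd2 was not called at -0.14 ± 0.09 and was called lower with library size alone (-0.34, edgeR adjusted p = 0.0094). Within clones a, b and c the log2 response of Smarcd1 exceeded that of Smarcd3 by 2.75, 1.61 and 1.29, a difference that was not tested.

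Smarcb1, a core subunit that is lost in human rhabdoid tumours, fell in all 3 clones. It averaged 68.4 ± 4.20 CPM after 4OHT and 95.6 ± 2.89 CPM in untreated cells (SD, n = 3 each), a log2 change of -0.48 ± 0.07 (adjusted p = 0.00020, edgeR). The scaffold gene Smarcc1 had 413, 421 and 401 CPM after 4OHT and 337, 355 and 353 CPM in untreated cells. It rose by 0.24 ± 0.06 (adjusted p = 0.0059, edgeR), a call that was lost with library size alone (0.04). Its paralog Smarcc2 averaged 44.7 ± 3.05 CPM after 4OHT and 50.4 ± 3.22 CPM in untreated cells. Smarcc2 was not called (-0.18 ± 0.08, edgeR adjusted p = 0.091) but was called lower with library size alone (-0.38) and with clone as a block (adjusted p = 0.019). The same held for Smarce1, an HMG-box subunit, at -0.14 ± 0.07 (edgeR adjusted p = 0.13, and 0.041 with clone as a block). Smarcc1 also overlaps Dhx30 on the opposite strand over 123 bp.

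Among the subunits that tell the assemblies apart, Arid1a, Arid2 and Brd9 rose, and Arid1b, Brd7, Pbrm1 and Dpf2 were not called. Arid1a, which defines the canonical BAF complex, had 493, 496 and 456 CPM after 4OHT and 396, 405 and 376 CPM in untreated cells. It rose by 0.30 ± 0.07 (adjusted p = 0.0031, edgeR), and was not called with library size alone (0.10). Its alternative Arid1b had 178, 192 and 147 CPM after 4OHT and 234, 254 and 165 CPM in untreated cells. The groups overlapped, since clone c was low in both, and the log2 change was -0.34 ± 0.15 (adjusted p = 0.076, edgeR). With clone as a block Arid1b was called lower (adjusted p = 9.8e-06), as it was with library size alone (-0.54) and without the untreated library of clone c (-0.52, adjusted p = 0.0013). It was also called lower with no filter on low counts (adjusted p = 0.031) and without both libraries of clone c (9.9e-06, edgeR). The log2 response of Arid1a exceeded that of Arid1b by 0.71, 0.70 and 0.44 in clones a, b and c, a difference that was not tested.

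Of the PBAF subunits, Arid2 had 306, 318 and 246 CPM after 4OHT and 195, 212 and 169.6 CPM in untreated cells, and rose by 0.59 ± 0.11 (adjusted p = 0.00098, edgeR). Clone c was the lowest in both groups, which did not overlap. Brd7, a bromodomain subunit of PBAF, had 113, 125 and 136 CPM after 4OHT and 87.6, 109 and 122 CPM in untreated cells. The groups overlapped and Brd7 was not called (0.23 ± 0.12, edgeR adjusted p = 0.11), but each clone was higher after 4OHT and the fit with clone as a block called it higher (adjusted p = 0.00041), as did the fits without the untreated library of clone c (adjusted p = 0.027) and without both libraries of that clone (0.022). Pbrm1, the polybromo subunit, changed by 0.06 ± 0.07 (adjusted p = 0.46, edgeR); it overlaps Smim4, which fell by 0.68, over 33461 bp of the opposite strand. Brd9, a bromodomain subunit of the non-canonical complex, had 45.6, 50.5 and 49.0 CPM after 4OHT and 41.3, 40.5 and 41.7 CPM in untreated cells. It rose by 0.23 ± 0.07 (adjusted p = 0.021, edgeR), a call that was lost with library size alone (0.03), with DESeq2 (adjusted p = 0.078), and when untreated clone a (adjusted p = 0.056), untreated clone b (0.075) or 4OHT clone b (0.076) was left out. Leaving out both libraries of clone a (adjusted p = 0.061) or of clone b (0.20, edgeR) ended it too. Dpf2, a reader subunit of canonical BAF, changed by -0.06 ± 0.08 and was called lower only with library size alone (-0.26) among the 7 alternatives that kept all libraries.

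All 3 genes of the BCL7 family, accessory subunits shared by the BAF assemblies, had lower mean levels after 4OHT, and 2 of them were called. Bcl7a had 29.9, 36.0 and 34.1 CPM after 4OHT and 62.4, 64.9 and 60.9 CPM in untreated cells. The 3 untreated libraries were close together and well above the 4OHT libraries, and Bcl7a fell by 0.92 on the log2 scale (SE 0.08, edgeR adjusted p = 9.8e-06), to 0.530 of the untreated level. Bcl7c averaged 21.2 ± 2.23 CPM after 4OHT and 29.9 ± 1.24 CPM in untreated cells (SD, n = 3 each) and fell by 0.495 (SE 0.102, edgeR adjusted p = 0.0020). Bcl7b averaged 40.9 ± 1.34 CPM after 4OHT and 45.1 ± 1.66 CPM in untreated cells, with no overlap between the groups, and was not called at -0.14 ± 0.07 (adjusted p = 0.13, edgeR) except with library size alone (-0.34).

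**Figure D3:**
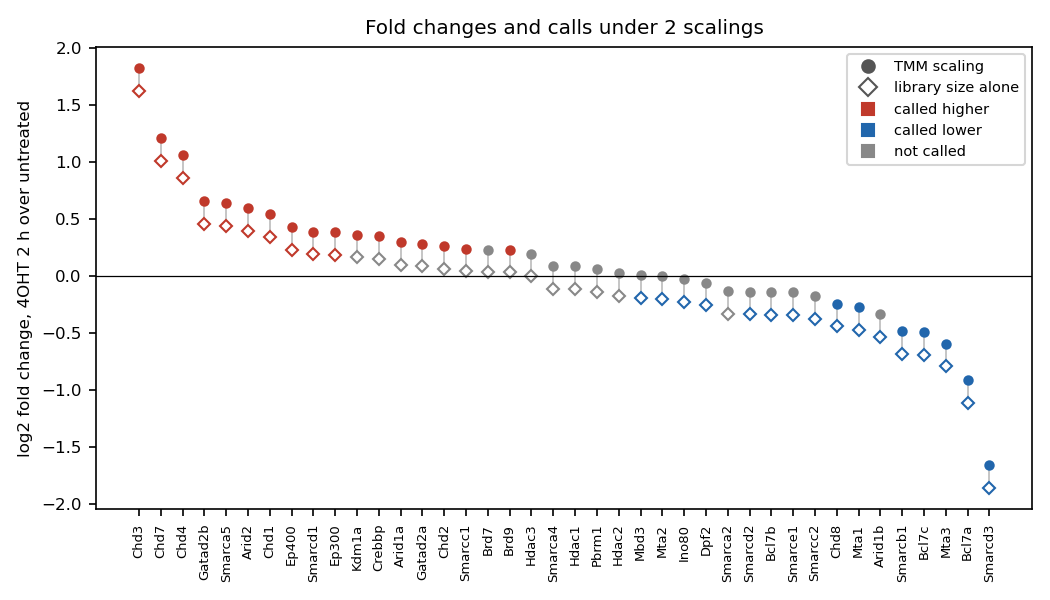
Log2 fold change of each gene, 4OHT over untreated, with TMM scaling (filled circles) and with library size alone (open diamonds), coloured by call. Library size alone places each gene about 0.20 lower, which ends 7 calls of higher and adds 9 calls of lower, while Chd3, Chd7, Chd4, Smarcd3 and Bcl7a keep their calls.

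Of the 10 genes for NuRD subunits and deacetylases, 3 rose and 2 fell, with a median log2 change of 0.06, and with library size alone 1 was called higher and 4 lower. Over all genes tested the shares were 28.5% and 28.6%, and 17.4% and 41% with library size alone. Gatad2b, which bridges the deacetylase and remodelling parts of NuRD, had 386, 422 and 369 CPM after 4OHT and 247, 261 and 238 CPM in untreated cells. The groups were well separated, and Gatad2b rose by 0.66 ± 0.07 (adjusted p = 2.8e-05, edgeR). Its paralog Gatad2a had 464, 521 and 580.3 CPM after 4OHT and 383, 432 and 470.4 CPM in untreated cells. Here the groups overlapped, since clone a after 4OHT was below clone c untreated, and Gatad2a rose by 0.28 ± 0.10 (adjusted p = 0.030, edgeR). That call was lost with library size alone (0.09) and when untreated clone a (adjusted p = 0.12), untreated clone b (0.073), 4OHT clone b (0.076) or 4OHT clone c (0.084) was left out, as it was without both libraries of clone a (0.059) or of clone b (0.17). With clone as a block the adjusted p of Gatad2a was 4.9e-06 (edgeR).

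Of the MTA scaffold genes Mta1 and Mta3 fell and Mta2 was not called, and with library size alone all 3 were called lower. Mta3 had 242, 231 and 214 CPM after 4OHT and 355, 348 and 336 CPM in untreated cells, and fell by 0.59 (SE 0.07, edgeR adjusted p = 3.6e-05). Mta1 averaged 129 ± 5.62 CPM after 4OHT and 155 ± 2.37 CPM in untreated cells, and fell by 0.27 (SE 0.06, edgeR adjusted p = 0.0030). Mta2 averaged 55.3 ± 4.24 CPM after 4OHT and 55.5 ± 2.51 CPM in untreated cells, a log2 change of -0.00 ± 0.08 (adjusted p = 0.98, edgeR). Mbd3, the subunit that NuRD needs to assemble in embryonic stem cells, averaged 89.1 ± 1.17 CPM after 4OHT and 88.5 ± 4.13 CPM in untreated cells, a change of 0.01 ± 0.06 (adjusted p = 0.91, edgeR). With library size alone Mbd3 (-0.19) and Mta2 (-0.20) were called lower.

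None of the 3 class I deacetylase genes on the list was called. Hdac1 averaged 134 ± 5.12 CPM after 4OHT and 127 ± 6.95 CPM in untreated cells (log2 change 0.08 ± 0.07, edgeR adjusted p = 0.30). For Hdac2 the averages were 95.6 ± 4.66 CPM after 4OHT and 93.9 ± 4.94 CPM in untreated cells (0.03 ± 0.07, edgeR adjusted p = 0.75). Hdac3, the catalytic subunit of the NCoR and SMRT corepressors, had 29.0, 26.1 and 29.1 CPM after 4OHT and 25.9, 21.9 and 25.8 CPM in untreated cells. The lowest 4OHT library was just above the highest untreated one, and the change of 0.20 ± 0.10 (adjusted p = 0.13, edgeR) was called with clone as a block (adjusted p = 0.046). Kdm1a, a histone demethylase that works with HDAC1 and HDAC2, had 220.0, 201 and 183 CPM after 4OHT and 167, 155 and 147 CPM in untreated cells. It rose by 0.36 ± 0.08 (adjusted p = 0.0030, edgeR) and was not called with library size alone (0.16). Kdm1a overlaps Luzp1 on the opposite strand over 4241 bp, and Luzp1 had a log2 change of 0.06 (adjusted p = 0.40, edgeR).

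Among the ATPases of the other remodelling families, 2 of 3 rose, against 28.5% of all genes tested. Smarca5, the ISWI ATPase that spaces nucleosomes, had 234, 275 and 306 CPM after 4OHT and 144, 170.3 and 209 CPM in untreated cells. The spread between clones was wide in both groups, with clone a lowest and clone c highest, but the groups did not overlap and Smarca5 rose by 0.64 ± 0.13 (adjusted p = 0.0021, edgeR). Ep400, the ATPase of the TIP60 acetyltransferase complex, averaged 306 ± 5.68 CPM after 4OHT and 227 ± 17.5 CPM in untreated cells (SD, n = 3 each) and rose by 0.43 ± 0.07 (adjusted p = 0.00047, edgeR). Ino80 averaged 306 ± 16.1 CPM after 4OHT and 312 ± 7.04 CPM in untreated cells, a log2 change of -0.03 ± 0.06 (adjusted p = 0.73, edgeR), and was called lower with library size alone (-0.23).

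Both acetyltransferases rose. Ep300 averaged 325 ± 12.8 CPM after 4OHT and 249 ± 8.35 CPM in untreated cells (SD, n = 3 each, log2 change 0.38 ± 0.06, edgeR adjusted p = 0.00045). Crebbp had 439, 453 and 413 CPM after 4OHT and 356, 353 and 315 CPM in untreated cells, and rose by 0.35 ± 0.07 (adjusted p = 0.0019, edgeR). With library size alone Ep300 was still called (0.18, adjusted p = 0.030) and Crebbp was not (0.15, adjusted p = 0.12). The log2 responses of this pair differed by 0.17, -0.01 and -0.07 in clones a, b and c (Ep300 minus Crebbp), and which of them was higher per kilobase depended on the length used.

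The other genes of these complexes were taken from lists of 112 genes, of which 110 were tested, 43 rose (39.1%) and 21 fell (19.1%). Over all genes tested 28.5% rose and 28.6% fell, and with library size alone 17.4% and 41%. Of 10 other BAF and PBAF subunits 1 rose and 6 fell (median log2 change -0.49, and 1 higher and 7 lower with library size alone). Dpf1, a neuronal alternative to Dpf2, rose by 1.33 ± 0.15 (29.4 ± 6.15 CPM after 4OHT, 11.6 ± 0.201 CPM in untreated cells), and Dpf3, the muscle and heart alternative, fell by 1.08 (SE 0.21, 2.52 ± 0.312 CPM after 4OHT, 5.31 ± 0.720 CPM in untreated cells). Bcl11a, a zinc finger subunit of BAF, fell by 1.55 (SE 0.23, 1.80 ± 0.359 CPM after 4OHT, 5.22 ± 0.626 CPM in untreated cells). The 4 other CHD genes had 1 call in each direction, Chd6 higher by 0.60 and Chd5 lower at -0.91.

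Of 19 other NuRD and corepressor genes 7 rose and 2 fell, and with library size alone 4 were called higher and 6 lower. The shares over all genes tested were 28.5% higher and 28.6% lower, and with library size alone 17.4% and 41%. Rbbp7, a histone-binding subunit of NuRD and other complexes, rose by 1.12 ± 0.06 (415 ± 19.2 CPM after 4OHT, 191 ± 2.39 CPM in untreated cells), and Rcor1, the CoREST scaffold that holds Kdm1a, by 1.07 ± 0.06 (140 ± 4.10 CPM after 4OHT, 66.8 ± 1.47 CPM in untreated cells). Sall4, a stem cell transcription factor that binds NuRD, fell by 1.15 (SE 0.07, 160 ± 8.24 CPM after 4OHT, 355 ± 16.6 CPM in untreated cells) and is also on the stem cell marker list. Of 15 other deacetylases 5 rose and 6 fell, and the class IIa genes split, with Hdac5 higher by 1.17 ± 0.07 and Hdac9 lower at -1.13 ± 0.10. Hdac11 fell by 2.31 (SE 0.19, 2.33 ± 0.554 CPM after 4OHT, 11.7 ± 1.16 CPM in untreated cells), Hdac10 by 1.02 (SE 0.28), and Sirt6, a nuclear sirtuin, rose by 1.03 ± 0.09.

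Of 31 other ISWI, INO80 and SRCAP genes 12 rose and 4 fell, against 5 and 9 with library size alone. Among all genes tested 28.5% rose and 28.6% fell, against 17.4% and 41% with library size alone. Baz1a, an accessory subunit that partners Smarca5, rose by 2.19 ± 0.18, 4.58-fold (179 ± 18.2 CPM after 4OHT, 39.4 ± 13.2 CPM in untreated cells). Baz2b, another bromodomain partner of ISWI, rose by 1.12 ± 0.12 and Atrx, a remodeller of heterochromatin, by 1.21 ± 0.12. Of 22 other acetyltransferases and their partners 11 rose and 1, Brd1, fell (11 and 1 became 6 and 5 with library size alone). Trrap, the scaffold of the TIP60 and SAGA complexes, rose by 1.33 ± 0.06 with little spread (440 ± 2.42 CPM after 4OHT, 175 ± 1.67 CPM in untreated cells). Of 9 readers of acetyl-lysine 6 rose and 1 fell (4 and 1 with library size alone): Brd2, which binds acetylated histones, rose by 1.30 ± 0.09, and Brd3 had a log2 change of -0.74.

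**Figure D4:**
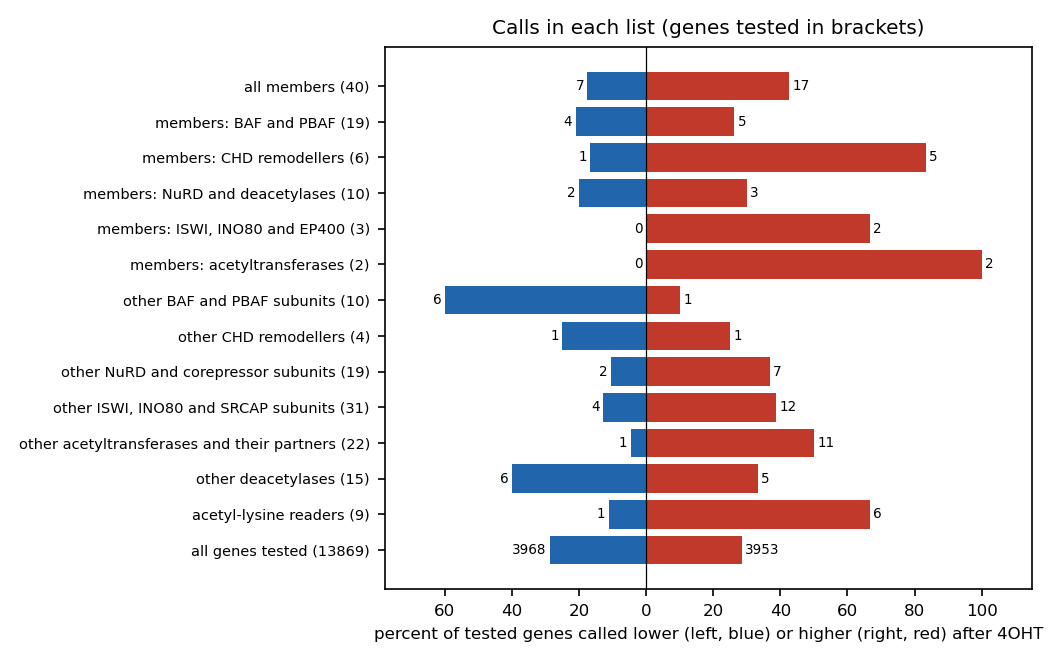
Percent of the tested genes of each list called lower (left) or higher (right) after 4OHT against untreated, with the number of genes beside each bar and the number tested in brackets. The CHD genes of the set show 5 of 6 higher and the other CHD genes 1 of 4. The other BAF and PBAF subunits show 6 of 10 lower and those of the set 4 of 19. All genes tested show 28.5% higher and 28.6% lower.

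Clones differed at 9 of the 40 genes (22.5%), by a joint edgeR test of the clone terms in the fit with both treatment and clone, against 12.6% of all genes tested. In all 9 clone c stood at one end, lowest for 5 genes and highest for 4, and over all genes the chi-square of the counts per gene within a group was 5.38 to 11.3 for pairs of libraries with clone c and 2.29 and 2.44 for clones a and b (4OHT and untreated). Clone c thus stood apart over all genes, and its place was not counted over all genes that differ between clones. The largest difference was that of Arid1b, which in clone c was 0.39 below clone a and 0.50 below clone b on the log2 scale (adjusted p = 4.7e-05, edgeR). Arid2 (0.26 and 0.35 below), Chd7 (0.15 and 0.33 below), Chd2 (0.17 below both) and Kdm1a (0.22 and 0.10 below) were also lowest in clone c. Highest in clone c were Smarca5 (0.46 above clone a and 0.23 above clone b, edgeR adjusted p = 6.1e-05), Chd3 (0.46 and 0.29 above), Brd7 (0.37 and 0.14 above) and Gatad2a (0.31 and 0.14 above). The 9 genes had a median span of 89.3 kb, against 34.6 kb for the other 31; the part of gene length or of clone c's lower depth was not tested.

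**Figure D5:**
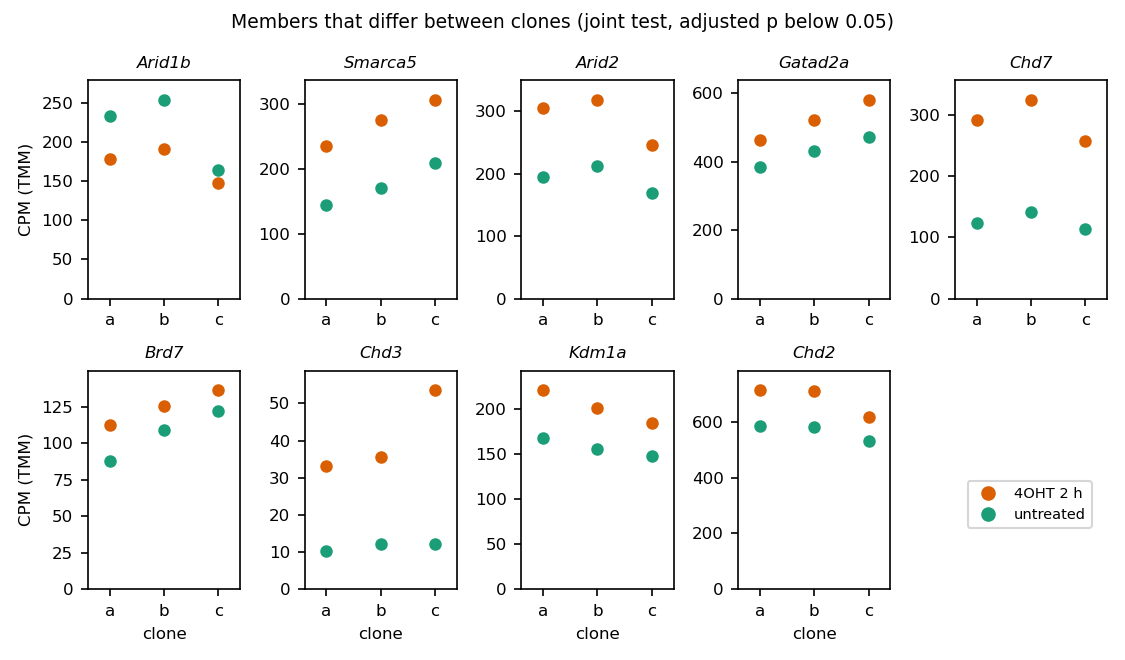
CPM (TMM) of the 9 genes called for a difference between clones, by clone, with 4OHT and untreated libraries in separate colours. In each panel clone c is the lowest or the highest of the clones in both conditions, apart from untreated Chd3, where clones b and c are level at 12.1 CPM; for Smarca5 the 4OHT libraries run between 234 and 306 CPM and the untreated libraries between 144 and 209 CPM.

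The 40 genes lie on 18 chromosomes and span 7.01 to 353 kb, with a median of 44.2 kb against 26.6 kb for all genes tested. Those that rose had a median span of 70.2 kb, those that fell 38.9 kb and those not called 27.0 kb, and over all genes the medians were 28.1, 32.1 and 21.7 kb. Levels are compared between paralogs per kilobase because the counts grow with length, and since it is not given whether reads were counted over exons or over whole genes, both lengths are given. Arid1a stood above Arid1b 3.07 times after 4OHT and 1.98 times in untreated cells per kilobase of exon, and 12.7 and 8.19 times per kilobase of span. Smarcc1 stood above Smarcc2 6.54 times after 4OHT and 4.90 times in untreated cells per kilobase of exon (2.35 and 1.76 times per kilobase of span). Hdac1 stood above Hdac2 1.82 times after 4OHT and 1.75 times in untreated cells per kilobase of exon (1.44 and 1.39 times per kilobase of span). For Mta1 against Mta2 and against Mta3, and for Ep300 against Crebbp, the order of the levels changed with the length used. Besides the overlaps named above, Pbrm1 overlaps Gnl3 on the opposite strand over 15 bp. A further 5 of the 40 genes overlap genes of the count table that had no counts in any library. How reads in the shared stretches were assigned was not tested, so these members may have lost reads there. Overlaps with annotated genes outside the count table are not given.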

How the data were processed

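Raw read counts per gene symbol were deposited for 6 libraries, 3 per group. Per the labels' protocols, nascent RNA was labelled with 5-ethynyl uridine, captured by click chemistry and made into libraries with a NEB kit. Per the submitters' processing notes, STAR, featureCounts and mm10 were used; not given in the sources used here are their versions, whether exons or whole genes were counted, and the use of strand. Counts were tested in R 4.3.3 with edgeR 4.0.16 (TMM, filterByExpr with a minimum count of 10 and total of 15, quasi-likelihood test, Benjamini-Hochberg threshold 0.05) on the 2 groups. On simulated counts this fit found 63% of log2 changes of 0.5 and 92% of log2 changes of 1, with 7 false calls. A gene that was not called may therefore still have changed. The simulated counts held no differences between clones, unlike these libraries. Alternatives were DESeq2 1.42.0 and its size factors, limma-voom 3.58.1, library size alone, no filter, a CPM of at least 1 in 3 libraries, clone as a replicate block, and leaving out each library or clone. The labels give both groups clones a, b and c, so the clones pair the samples. Deviations of libraries from the same clone (a, b and c) correlated at r = 0.282, 0.165 and 0.357 over genes. Between clones a and b r was 0.068 and 0.028, and between clone c and the others -0.283 to -0.146. Deviations were taken from the group means, so these values are not independent. The main test of treatment did not use this pairing. Of the treatment fits only that with clone as a block did, and it called 19 of the 40 genes higher and 10 lower. No label says that the clones were handled independently, so the p-values reflect library spread, part of which may be technical. Positions and lengths came from GENCODE M21 (GRCm38, the mm10 build), promoters from RefSeq (GRCm38.p6). The members and lists were chosen with earlier results of these data known. Values per library are given for called genes with a log2 change of at least 0.5 and, up to 20 genes, those whose call changed with scaling or block. Genes of the other lists are named when called with a log2 change of at least 1, and Chd5, Chd6, Brd1, Brd3, Smim4, Gnl3, Luzp1, Chpf2 and Dhx30 were named after their values were seen or for their overlap.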

Additional observations from a re-analysis of the deposited data

How the results depend on the processing

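With library size alone in place of TMM, 2407 of all genes were called higher, and of the 40 genes 10 were called higher and 16 lower. The sign of 6 uncalled genes changed under it: the log2 change was -0.11 for Smarca4, -0.14 for Pbrm1, -0.19 for Mbd3, -0.11 for Hdac1, -0.17 for Hdac2 and -0.0037 for Hdac3. With DESeq2 that of Mta2 became 0.00090. With clone as a replicate block 19 of the 40 genes were called higher and 10 lower (29 in all), and the calls it changed are those given beside Smarcc2, Smarce1, Arid1b, Brd7 and Hdac3. Leaving out 1 library or 1 clone gave 15 to 27 called genes of the 40, 11 to 18 higher and 4 to 9 lower, with the lowest counts without clone b, and 5421 to 8487 called among all genes (2713 to 4159 higher, 2708 to 4328 lower). In these fits the sign changed for Dpf2 (-0.127 to 0.0128), Mbd3 (-0.0124 to 0.0321), Mta2 (-0.0678 to 0.0627), Hdac2 (-0.0225 to 0.0679) and Ino80 (-0.0725 to 0.0189). Without clone a or clone b, the calls of Smarcc1 (adjusted p = 0.10 and 0.091), Arid1a (0.053 and 0.055), Mta1 (0.058 and 0.065), Chd2 (0.11 and 0.13), Brd9 (0.061 and 0.20) and Gatad2a (0.059 and 0.17, edgeR) were lost, and without clone b those of Kdm1a (0.053), Chd8 (0.12) and Bcl7c (0.050). Without clone c, Smarcc2 (adjusted p = 0.036) and Arid1b (9.9e-06) were called lower and Brd7 (0.022, edgeR) higher. The causes were not tested. Depth limits Smarcd3, with at most 9 counts in a 4OHT library, and Smarca2.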

Other observations

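Of the 110 tested genes on the other lists, 31 (28.2%) differed between clones, against 12.6% of all genes tested, and 22 of them were lowest and 8 highest in clone c. Clone c stood apart over all genes, and its place was not counted over all genes that differ between clones. Sap30, a SIN3 corepressor subunit, was 0.61 above clone a and 0.43 above clone b in clone c on the log2 scale, and Baz1a 0.56 and 0.45 above. Kat6a, a MYST acetyltransferase, was 0.38 and 0.16 above and Chd9 0.36 and 0.18 above. Atrx was 0.39 and 0.30 below, Baz2b 0.35 and 0.36 below and Kat6b 0.32 and 0.23 below. These 7 genes were named after their values were seen. The difference in the treatment response between clones was not tested, since each clone has 1 library per group.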
